A study of Homo sapiens with 9 samples.

Results

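The genes described here encode the main proteins that the liver releases into blood plasma, namely carriers, acute-phase proteins, protease inhibitors, clotting factors and complement components. They were chosen by function, as 52 listed symbols, and 50 of them were paired with a transcript cluster of the array, out of 17687 named genes in all. SAA4 and APCS, 2 acute-phase genes of the list, were not analysed here. The cells were HepG2, a line derived from a human liver tumour that keeps much of the secretory programme of hepatocytes. Control cells (CONT) received Ad-C, an adenovirus without insert, and vehicle (DMSO), VDR cells received Ad-VDR, an adenovirus encoding human VDR, and vehicle, and VDR+VitD cells received Ad-VDR and 10 nM VitD (calcitriol, the active form of vitamin D). Cells carried the virus for 48 h and were exposed to VitD or vehicle for 4 h, in 3 independent experiments with 1 array per group each. All groups carried an adenovirus, and VitD was given only to cells with Ad-VDR, so that VitD without added VDR was not tested. The arrays measured mRNA, not the secreted proteins.

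Hepatocytes make most plasma proteins, and their genes share liver-enriched transcription factors such as those of the HNF and C/EBP families. Clotting is a chain of proteases that ends with thrombin cutting fibrinogen into fibrin, and it is held back by inhibitors such as antithrombin and by the protein C pathway. Several of these factors become active only after GGCX, an enzyme of the endoplasmic reticulum, has carboxylated them with vitamin K as cofactor. Complement is a parallel set of proteases and pore-forming proteins, and in its lectin pathway a soluble lectin binds sugars on a microbe and activates the MASP proteases bound to it. VDR is a nuclear receptor that acts with the retinoid X receptor, typically at pairs of hexamers arranged as a direct repeat (DR3).

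The values were log2 RMA values between 2.47 and 18.24, and array medians lay between 6.16 and 6.20. VDR was between 6.04 and 6.79 on the 3 CONT arrays and between 17.45 and 17.87 on the 6 arrays with Ad-VDR, and no library went against its label. All 8 measured hepatocyte markers, among them APOA1 and ASGR1, were above 5.38, the 95th percentile of 349 olfactory receptor genes, which served as a reference for dim probes. Markers named after other liver cell types were also read. Since HepG2 is a cell line, their signal is not a measure of such cells. Among them, 2 of 7 endothelial markers, 3 of 5 measured stellate cell markers and 6 of 8 macrophage markers exceeded the reference level. The summed level of each of these 3 lists lay between 7.67 and 11.79 on every array. The summed level of 5 cholangiocyte markers, 4 of them above the reference, was between 15.5 and 15.6 without VitD and between 15.7 and 15.8 with it, and 2 of 5 lymphocyte markers exceeded the reference. None of these markers was called in VDR+VitD against VDR cells. Against CONT, 1 cholangiocyte marker was called lower and 1 hepatocyte marker higher in VDR+VitD cells, and their part in the results was not tested. Among the 50 plasma protein genes, 46 exceeded the reference level, and F9, CRP, C9 and ITIH1 had means below it. At the other end, AHSG lay between 17.85 and 18.12, near the highest value of the arrays, where a change can be understated. TF, SERPINA1, C3 and ALB had means of 17.67, 17.22, 16.95 and 16.79, and the same limit may apply to them.

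The lectin pathway genes MBL2, MASP1 and MASP2 were the genes called in VDR+VitD against CONT cells among the 12 complement genes described here, and the letters before their starts are shown because the receptor that was added and activated here binds DNA. Each line holds the 250 bases before the start of the gene in RefSeq (GRCh38.p14), 5′ to 3′ on the strand of the gene. Capitals mark VDR half-sites (AGGTCA or AGTTCA or GGGTCA or GGTTCA) and C/EBP-type motifs (TTGCNNAA), searched on both strands.
MASP1, chr3:187291738-187291987, - strand: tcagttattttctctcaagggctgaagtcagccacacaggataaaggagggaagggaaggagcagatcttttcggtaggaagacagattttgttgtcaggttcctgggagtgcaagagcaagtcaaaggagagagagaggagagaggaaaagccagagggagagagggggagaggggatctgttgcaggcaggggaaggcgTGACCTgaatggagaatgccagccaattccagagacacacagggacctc
MBL2, chr10:52772785-52773034, - strand: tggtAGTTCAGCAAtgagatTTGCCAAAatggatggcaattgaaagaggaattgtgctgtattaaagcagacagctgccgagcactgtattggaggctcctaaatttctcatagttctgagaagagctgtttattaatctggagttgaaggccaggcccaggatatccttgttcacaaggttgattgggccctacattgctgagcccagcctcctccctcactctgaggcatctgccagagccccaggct
MASP2, chr1:11047240-11047489, - strand: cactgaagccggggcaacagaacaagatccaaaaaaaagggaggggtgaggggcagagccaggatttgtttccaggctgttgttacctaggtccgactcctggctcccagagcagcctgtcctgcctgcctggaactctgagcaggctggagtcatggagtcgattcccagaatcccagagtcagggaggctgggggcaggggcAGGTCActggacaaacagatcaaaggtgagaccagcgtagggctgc
MASP1 held 1 half-site, 49 to 44 bases before the start on the opposite strand, and MASP2 held 1 on its own strand, 46 to 41 bases before the start. MBL2 held a half-site at 246 to 241 bases and C/EBP-type motifs at 244 to 237 and 230 to 223 bases before the start, of which the former overlaps the half-site. Half-sites were common, being present in 31.1% of 13281 promoters of this length, and 20 of the 39 plasma protein genes with such a sequence held one. A DR3 of 2 half-sites in the same direction with 3 bases between them was present in 0.0602% of all promoters and in 0 of these 39. C/EBP-type motifs were present in 7.34% of all promoters and in 9 of the 39 genes, with ALB, FGA, FGB and MBL2 among them, and HNF1 half-sites (GTTAAT) in 4.75% and in 6 of 39. A match is a match of letters, and binding was not measured.

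VitD raised 3 of the 50 genes in cells with Ad-VDR, MASP1, MBL2 and ITIH1, and none was called lower. A gene was called at a Benjamini-Hochberg adjusted p under 0.05 from limma, over all genes, and a fold-change over 1.5. The 3 genes were 6.0% of those measured, against 4.16% of all genes in either direction and 2.62% called higher, so that their share was close to the background. The same 3 were called without the fold threshold, which 4.74% of all genes passed, and 9 had an unadjusted p under 0.05, against 15.1% of all genes. In bulk RNA, fewer expressing cells and less RNA per cell cannot be told apart. The median log2 difference of the 50 genes was -0.005, against -0.023 over all genes. Of the differences, 23 were above 0 (46.0%, against 44.9% of all genes) and 26 below. The values on the 3 VDR+VitD arrays did not overlap those on the VDR arrays for 11 of the 50, against 18.3% of all genes.

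**Figure D1:**
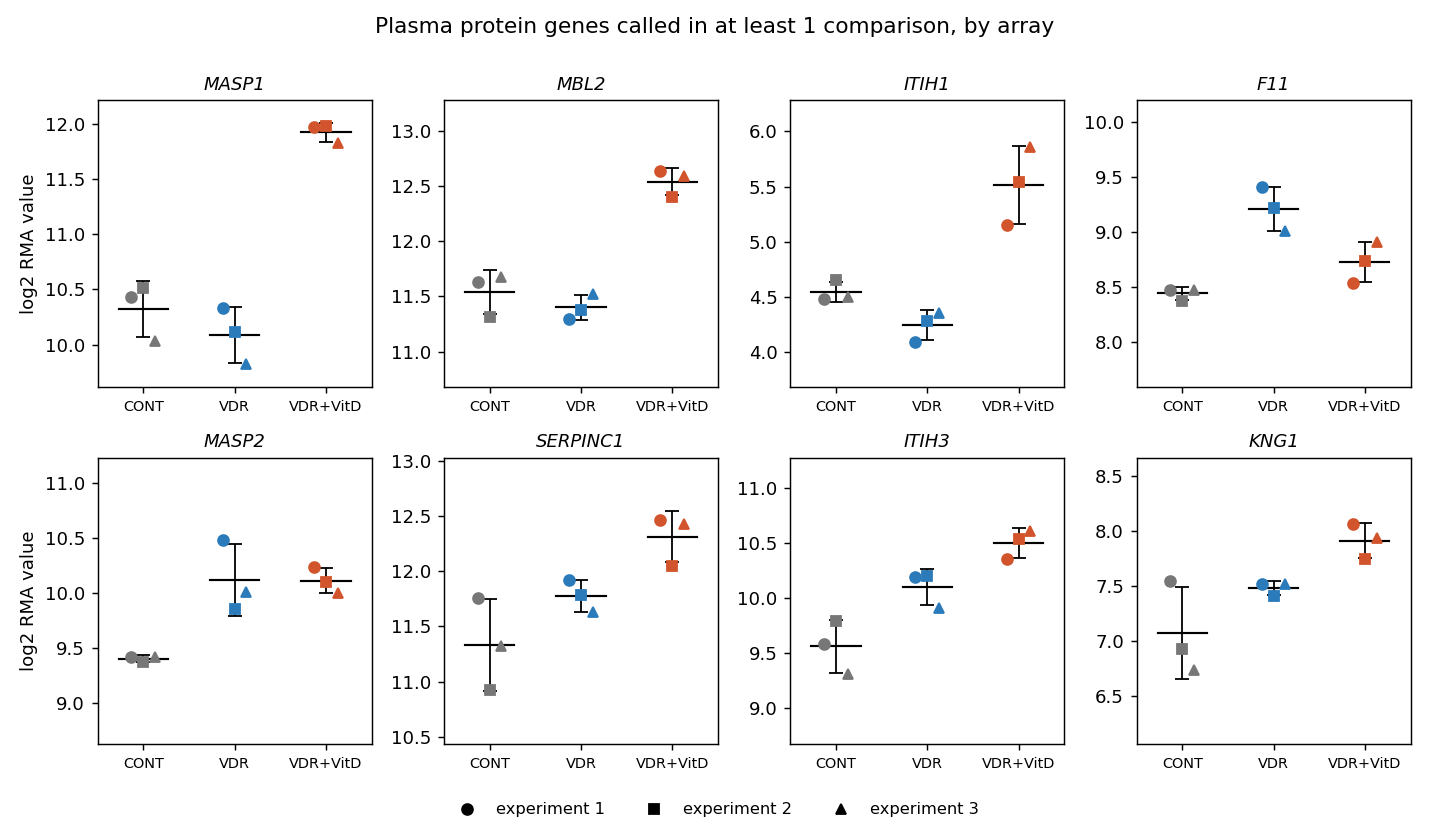
Log2 RMA values (y axis) of the 8 plasma protein genes called in at least 1 comparison, in CONT, VDR and VDR+VitD cells (x axis); each point is 1 array, the symbol gives the experiment, horizontal lines are means and bars SD (n = 3). MASP1, MBL2 and ITIH1 are highest on all 3 VDR+VitD arrays, F11 is highest on the VDR arrays, and MASP2 is about as high in VDR as in VDR+VitD cells.

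MASP1, a protease that starts the lectin pathway, had the largest change. Its log2 values were 10.43, 10.51 and 10.03 on the CONT arrays, 10.33, 10.11 and 9.82 on the VDR arrays and 11.97, 11.98 and 11.83 on the VDR+VitD arrays. The 3 VDR+VitD values were above all 6 others, while CONT and VDR overlapped. With VitD, MASP1 rose 3.58-fold over VDR cells (log2 difference 1.84, standard error 0.16, adjusted p = 3.42e-06 from limma), and higher in 3 of 3 experiments. Against CONT it was 3.04-fold higher (adjusted p = 1.26e-05).

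MBL2, the mannose-binding lectin to which MASP proteases attach, moved the same way. It was at 11.63, 11.31 and 11.68 in CONT, 11.30, 11.38 and 11.52 in VDR and 12.64, 12.40 and 12.59 in VDR+VitD cells. The groups with and without VitD did not overlap, and those with and without Ad-VDR did. MBL2 rose 2.21-fold over VDR cells (log2 difference 1.14, standard error 0.14, adjusted p = 1.03e-04 from limma), in 3 of 3 experiments, but missed the threshold under treat, the limma test of whether a change exceeds 1.5-fold (adjusted p = 0.0597; its alternatives spanned 4.57e-06 to 0.0597).

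MASP2, the protease of the same complex that cleaves C4 and C2, had another pattern. Its values were 9.42, 9.37 and 9.42 in CONT, 10.48, 9.85 and 10.01 in VDR and 10.23, 10.10 and 10.00 in VDR+VitD cells. All 6 arrays with Ad-VDR were above the 3 CONT arrays, with or without VitD. The log2 difference was 0.71 for VDR against CONT (95% interval 0.37 to 1.05, adjusted p = 0.0741) and -0.0033 for VDR+VitD against VDR (-0.34 to 0.33, adjusted p = 0.994). With the experiment as a block, MASP2 was called in VDR against CONT (adjusted p = 0.0410, and between 0.0269 and 1 across all alternatives). Against CONT, VDR+VitD cells had 1.63-fold more MASP2 (adjusted p = 0.0130), a call that leaving out CONT replicate 2 ended (adjusted p = 0.0504), as did leaving out VDR+VitD replicate 1 (0.0664). Of the other recognition molecules of the pathway, from a separate list, COLEC10, COLEC11 and FCN3 had means below the reference for dim probes in all groups, so that a change in them could not be read. FCN1 and FCN2 lay just above it, with log2 differences of -0.22 (interval -0.60 to 0.16) and 0.04 (interval -0.25 to 0.32) for VitD.

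Of the remaining 9 complement genes, none was called with VitD. C3, the central component on which all routes converge, was at 16.94 ± 0.11 in VDR and 16.97 ± 0.09 in VDR+VitD cells (SD, n = 3 each), a log2 difference of 0.03 with an interval of -0.24 to 0.30. C8A and C8B, neighbouring genes for subunits of the membrane attack complex, had log2 differences of -0.55 (adjusted p = 0.121) and -0.31 (adjusted p = 0.304). C8A was at 7.32, 7.60 and 6.91 in VDR and 6.85, 6.42 and 6.91 in VDR+VitD cells, so that the groups met at 6.91, and without VDR replicate 3 it was called lower. CFB, the protease of the alternative pathway, was at 12.77, 13.01 and 13.18 in CONT, 13.88, 13.48 and 13.70 in VDR and 13.54, 13.26 and 13.38 in VDR+VitD cells. Every VDR value of CFB was above every CONT value, with a log2 difference of 0.70 (interval 0.38 to 1.02) that missed the threshold (adjusted p = 0.0664). The other components, C4BPA, C5, C6, C9 and CFI, had differences between -0.17 and 0.07 with VitD. In a list of 22 further measured complement genes, none was called with VitD, 2 had an unadjusted p under 0.05, and none was called with Ad-VDR alone. CD46, a membrane protein that protects cells from complement, passed the adjusted p with VitD (0.0109) and missed the call by its fold-change of 1.498.

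ITIH1, a heavy chain of the inter-alpha-trypsin inhibitors that bind hyaluronan in the extracellular matrix, was called higher with VitD, but from a level at which its probes were not above the reference. It was at 4.48, 4.65 and 4.50 in CONT, 4.09, 4.28 and 4.35 in VDR and 5.15, 5.54 and 5.86 in VDR+VitD cells. The VDR+VitD values were the highest, but only 2 of them exceeded the reference level of 5.38 for dim probes, and the values without VitD were all below it. The VDR+VitD mean of 5.52 was 1.10-fold above that reference, and the array at 5.15 was below it. The size of the rise could not be read from these values. The fitted log2 difference of 1.28 (standard error 0.17, adjusted p = 1.80e-04 from limma, same direction in 3 of 3 experiments) rests on the dim values, and a filter on dim genes left ITIH1 out.

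The genes next to ITIH1 on chromosome 3, ITIH3 and ITIH4, code for related proteins. ITIH3 was at 9.58, 9.79 and 9.31 in CONT, 10.19, 10.20 and 9.91 in VDR and 10.35, 10.53 and 10.61 in VDR+VitD cells. Its 3 groups did not overlap and stood in this order, with log2 differences of 0.54 for Ad-VDR (adjusted p = 0.195) and 0.40 for VitD (adjusted p = 0.196). Together they made ITIH3 1.91-fold higher in VDR+VitD than in CONT cells (log2 difference 0.94, standard error 0.15, adjusted p = 0.00117). ITIH4, an acute-phase relative, had 0.41 for Ad-VDR and -0.12 for VitD, neither past the test. The differences between these neighbours were not tested. ITIH2, another heavy chain, was at 16.45 ± 0.05 in VDR and 16.44 ± 0.06 in VDR+VitD cells (SD, n = 3 each), and AMBP, which encodes the bikunin chain that heavy chains attach to, had a log2 difference of 0.22 (interval -0.10 to 0.54).

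**Figure D2:**
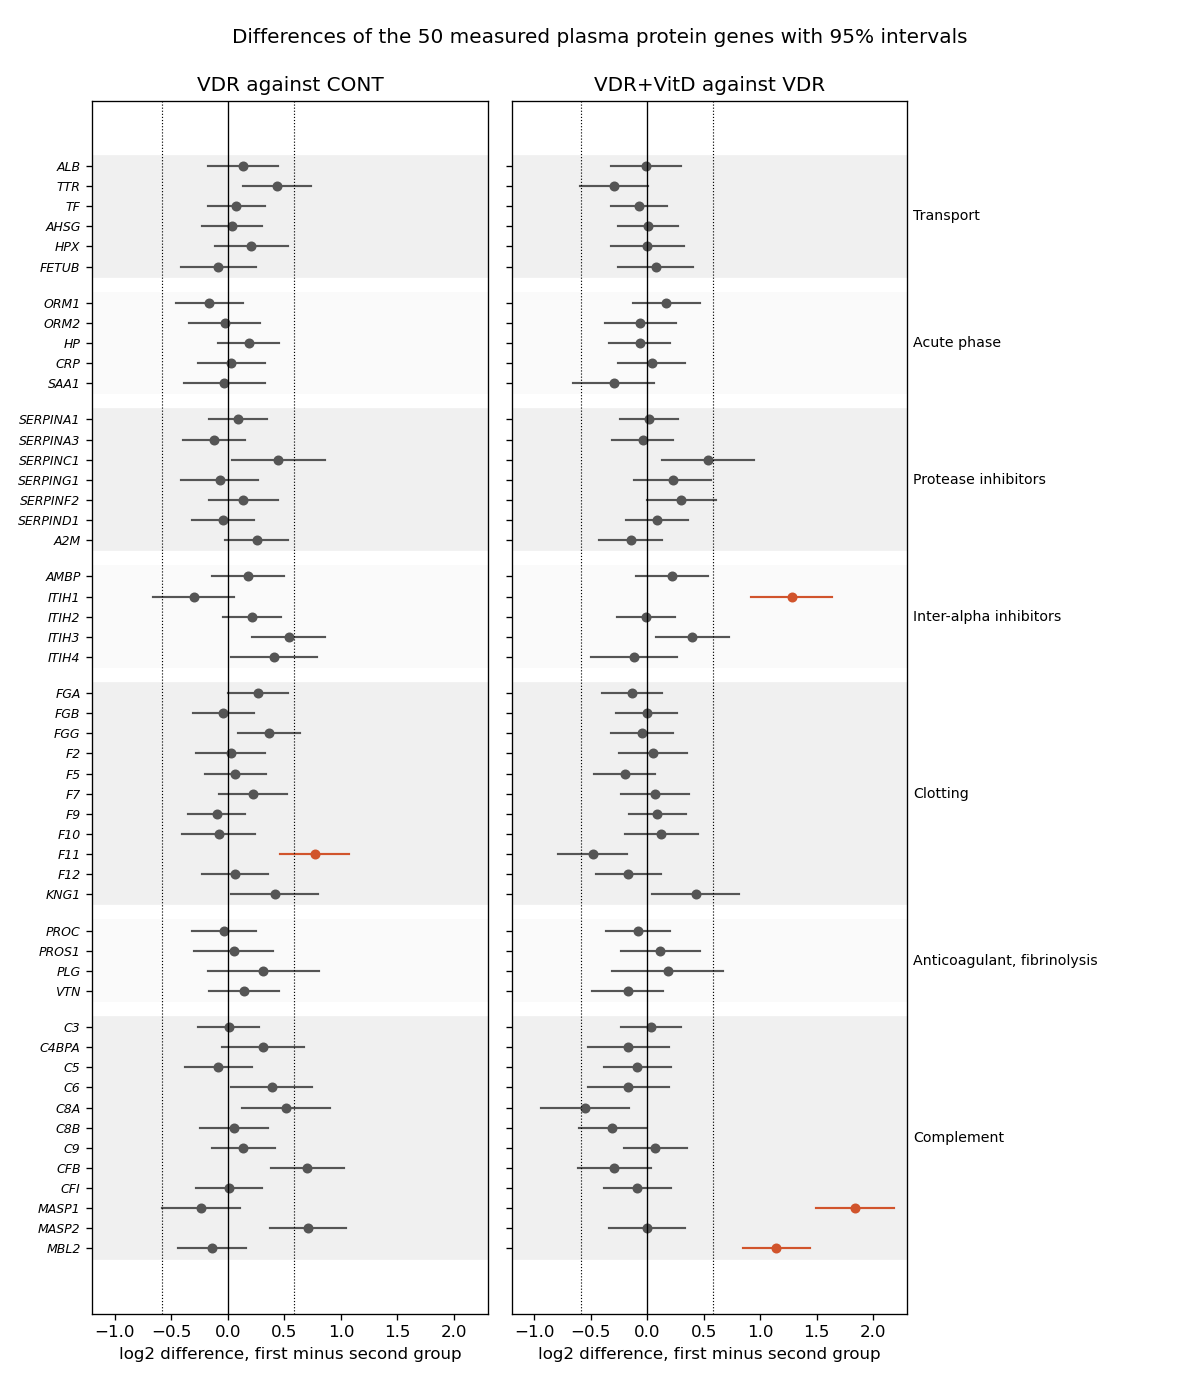
Log2 difference (x axis) of each of the 50 plasma protein genes (y axis, grouped by role) for VDR against CONT (left) and VDR+VitD against VDR (right); points are limma estimates, bars 95% intervals, dotted lines a 1.5-fold change, and called genes are coloured. The panels share the VDR arrays. Most intervals lie between the dotted lines, and MASP1, MBL2 and ITIH1 are to the right of them with VitD.

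The bulk of the secretory genes stayed within a narrow range. For 36 of the 47 genes not called with VitD, the 95% interval of the difference lay within a 1.5-fold change in either direction. The 36 include F9, CRP and C9, below the reference level for dim probes, where a change could not be read. The matching share of all genes was not computed. ALB, serum albumin, was at 16.75, 16.80 and 16.96 in VDR and 16.63, 16.90 and 16.95 in VDR+VitD cells, with a log2 difference of -0.01 and an interval of -0.32 to 0.30. The 2 sets of values overlapped almost fully. Of the 6 carrier genes none was called in any comparison, and the largest difference with VitD was that of TTR, which carries thyroid hormone and retinol-binding protein, at -0.29 (interval -0.59 to 0.01, adjusted p = 0.347). TTR was at 13.55, 13.50 and 13.13 in CONT, 13.90, 13.72 and 13.87 in VDR and 13.46, 13.64 and 13.51 in VDR+VitD cells, with the VDR arrays above those of both other groups. AHSG, TF, HPX and FETUB, for fetuin-A, transferrin, hemopexin and fetuin-B, had differences between -0.07 and 0.08.

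None of the 5 measured acute-phase genes was called in any comparison. SAA1, serum amyloid A, had the largest difference with VitD, -0.30 (interval -0.65 to 0.06), and was at 5.69, 5.66 and 6.09 in VDR and 5.40, 5.69 and 5.46 in VDR+VitD cells, which overlapped. These values lay just above the reference level for dim probes, where a fall can be understated. CRP, the pentraxin that marks inflammation, was at 3.87 ± 0.22 in VDR and 3.91 ± 0.01 in VDR+VitD cells (SD, n = 3 each), below the reference level for dim probes. HP, haptoglobin, and ORM1 and ORM2, the orosomucoids, had -0.07, 0.17 and -0.06. ORM1 and ORM2 are close copies, as are HP and HPR and SAA1 and SAA2, and probes may not tell their mRNAs apart. Of 17 measured genes that carry or restrain the acute-phase signal, 9 had differences below 0 with VitD, against 9620 of all 17687 genes. The median over the 17 was -0.11, against -0.023 over all genes. None of the 17 was called lower, and 5 were called higher. These were the transcription factors CEBPA, with a log2 difference of 2.99 (standard error 0.14, adjusted p = 7.02e-09), and CEBPB, with 1.31 (standard error 0.13, adjusted p = 8.97e-06), the NF-kappa-B inhibitor NFKBIA, with 2.06, the TNF receptor TNFRSF1A, with 1.03, and IL1RAP, the accessory chain of the interleukin-1 receptor, with 0.61. IL1RAP had means of 8.96 in CONT, 8.30 in VDR and 8.91 in VDR+VitD cells, so that the VDR arrays were the low ones. Its log2 difference of VDR+VitD against CONT was -0.05, while the other 4 were called higher in that comparison too. The 5 called genes were 29.4% of the list, against the 4.16% of all genes. The list was chosen with earlier results of these data known, so that this share is no test of the list. Among those not called, IL1RN, an antagonist of the interleukin-1 receptor, had -0.76 (adjusted p = 0.0675), NFKB1, a subunit of NF-kappa-B, had -0.50 (adjusted p = 0.0893), and CEBPD, another C/EBP factor, had -0.44 (adjusted p = 0.125). Over the list, the VDR and VDR+VitD values did not overlap for 12 genes (70.6%, against 18.3% of all genes). Without overlap and higher with VitD were 7 of the 17, against 1531 of all 17687 genes. The 5 acute-phase genes themselves had a median difference of -0.06. CEBPB was at 10.84, 10.90 and 10.71 in VDR and 12.15, 12.11 and 12.11 in VDR+VitD cells, without overlap.

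Among the 7 protease inhibitors, SERPINC1, which encodes antithrombin, the inhibitor of thrombin and factor Xa, differed from CONT in VDR+VitD cells. It was at 11.76, 10.92 and 11.32 in CONT, 11.92, 11.79 and 11.63 in VDR and 12.47, 12.05 and 12.43 in VDR+VitD cells. The VDR+VitD values were above all others, and CONT and VDR overlapped. The difference from CONT was 1.98-fold (log2 difference 0.98, standard error 0.19, adjusted p = 0.00524 from limma), while the steps for Ad-VDR (0.45, adjusted p = 0.478) and VitD (0.54, interval 0.13 to 0.95, adjusted p = 0.159) were not called on their own. SERPINA1, alpha-1-antitrypsin, was at 17.24 ± 0.09 in VDR and 17.25 ± 0.06 in VDR+VitD cells (SD, n = 3 each). SERPINA3, SERPIND1, SERPING1, SERPINF2 and A2M had differences between -0.15 and 0.30 with VitD. Beside SERPINA1 and SERPINA3 on chromosome 14 lie other inhibitor genes of the same family, and SERPINA5, the protein C inhibitor, rose with VitD by 0.66 (standard error 0.16, adjusted p = 0.0248). SERPINA5 was at 11.21, 11.13 and 10.79 in CONT, 10.35, 10.73 and 10.35 in VDR and 10.93, 11.24 and 11.24 in VDR+VitD cells, so that the VDR arrays were the low ones. The neighbours SERPINA4, SERPINA6 and SERPINA10 had 0.72, 0.35 and -0.49 with VitD and were not called. SERPINA7, thyroxine-binding globulin, is not one of these neighbours. It fell by 0.67 (standard error 0.14, adjusted p = 0.00958), and in a list of 21 other plasma proteins it was the only gene called with VitD.

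Of the 11 clotting genes, F11, which encodes factor XI of the contact-activated route, was called in VDR against CONT cells. This was 1 of the 50 plasma protein genes, 2.0%, against 0.407% of all genes in that comparison with the same thresholds. An unadjusted p under 0.05 was reached by 12 of the 50, against 9.5% of all genes, and the groups did not overlap for 13, against 13.1%. The differences of 35 of the 50 were above 0 (70.0%, against 50.6% of all genes). Their median difference over the 50 was 0.08, against 0.0033 over all genes. F11 was at 8.48, 8.38 and 8.48 in CONT, 9.41, 9.22 and 9.01 in VDR and 8.54, 8.74 and 8.91 in VDR+VitD cells. The VDR arrays were the highest, the VDR+VitD arrays lay between, and no group overlapped another. The rise with Ad-VDR was 1.70-fold (log2 difference 0.77, standard error 0.14, adjusted p = 0.0309 from limma). The call was lost when the fit held the CONT and VDR arrays alone (adjusted p = 0.0609), and when any CONT array was left out or either of VDR replicates 1 and 2 (0.0733 to 0.160). Across all alternatives its adjusted p was between 0.0119 and 1. With VitD, F11 had a log2 difference of -0.48 (interval -0.79 to -0.18, adjusted p = 0.0754), and without VDR replicate 3 this was called (adjusted p = 0.0464). KLKB1, the neighbouring gene for plasma prekallikrein, had group means of 3.84 to 4.25, below the reference for dim probes, and was not compared with F11.

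KNG1, the kininogen from which plasma kallikrein releases bradykinin, was at 7.54, 6.93 and 6.74 in CONT, 7.52, 7.41 and 7.52 in VDR and 8.06, 7.74 and 7.93 in VDR+VitD cells. The VDR+VitD values were the highest, and 1 CONT value was above the VDR arrays. The gene was 1.79-fold higher in VDR+VitD than in CONT cells (log2 difference 0.84, standard error 0.18, adjusted p = 0.0102), a call that ended when CONT replicate 2 or 3 or VDR+VitD replicate 1 was dropped (adjusted p of 0.0522 to 0.0574). HRG, its neighbour, had -0.29 in the same comparison, and AHSG and FETUB, next in the row on chromosome 3, had 0.04 and -0.0067. FGA, FGB and FGG, the 3 chains of fibrinogen, are also neighbours, and none was called. FGG was at 15.70, 15.63 and 15.84 in CONT and 16.17, 15.99 and 16.09 in VDR cells, without overlap, a log2 difference of 0.36 (interval 0.09 to 0.63, adjusted p = 0.351), and FGB had -0.04 (interval -0.31 to 0.23). FGA was at 16.51, 16.44 and 16.50 in CONT and 16.79, 16.77 and 16.69 in VDR cells, also without overlap, with 0.27 (interval 0.0020 to 0.53, adjusted p = 0.521). With VitD the 3 chains had -0.13, -0.0067 and -0.05.

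The genes of vitamin K-dependent proteins were compared with the enzyme that modifies their products. GGCX was at 10.82, 10.63 and 10.59 in CONT, 10.55, 10.75 and 10.29 in VDR and 12.39, 12.35 and 12.35 in VDR+VitD cells. The VDR+VitD arrays stood above all others and close together. GGCX rose 3.56-fold with VitD (log2 difference 1.83, standard error 0.14, adjusted p = 7.56e-07 from limma), and was the only called gene in a list of 8 measured genes of vitamin K use and protein export. VKORC1, the reductase that recycles vitamin K, had -0.13 (interval -0.38 to 0.12), and LMAN1 and MCFD2, which carry factors V and VIII out of the endoplasmic reticulum, were at 15.45 ± 0.07 and 13.40 ± 0.12 in VDR+VitD cells against 15.45 ± 0.18 and 13.40 ± 0.08 in VDR cells (SD, n = 3 each).

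**Figure D3:**
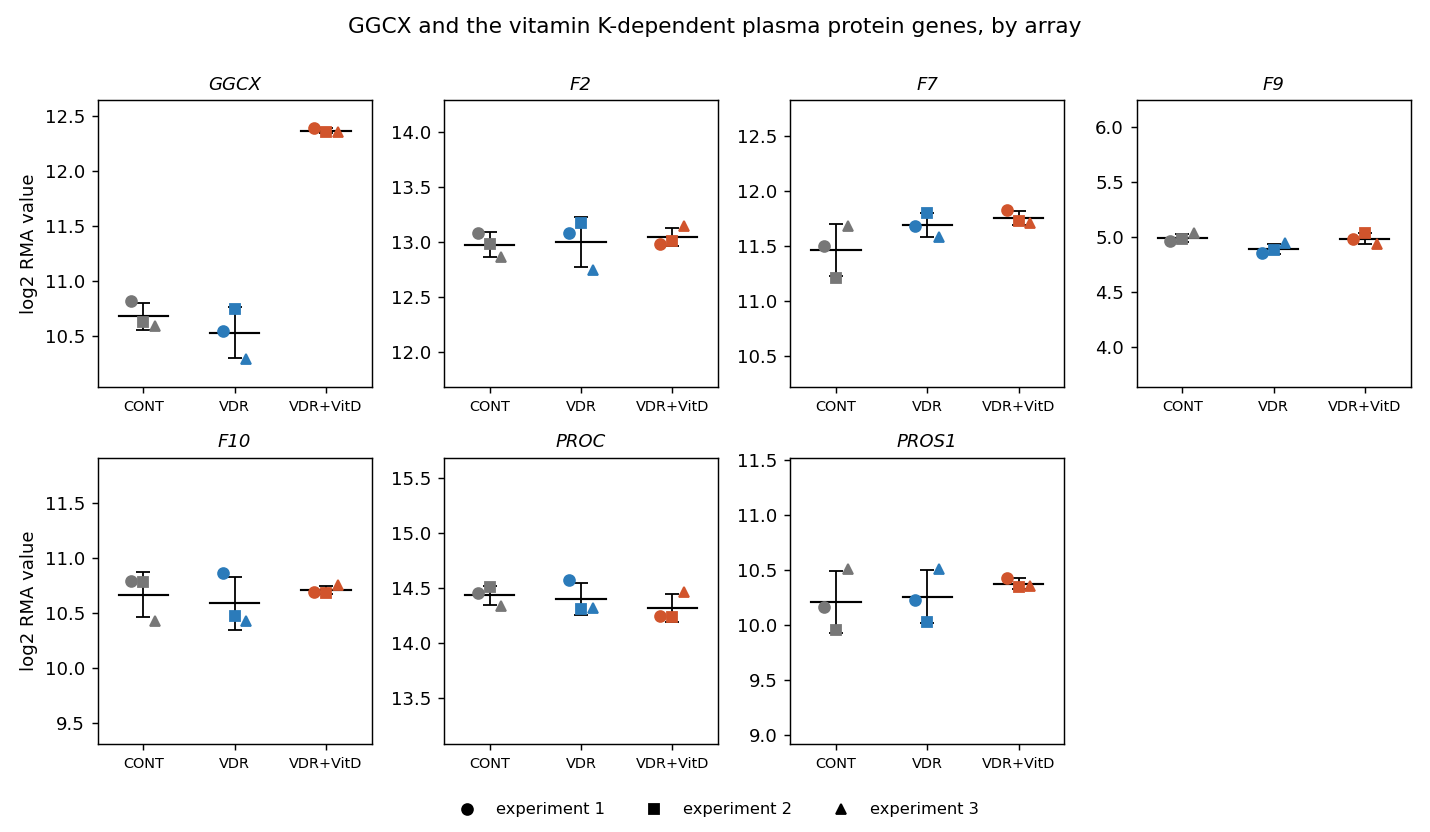
Log2 RMA values (y axis) of GGCX and of 6 vitamin K-dependent plasma protein genes in CONT, VDR and VDR+VitD cells (x axis); points are arrays, symbols experiments, lines means and bars SD (n = 3). GGCX is near 12.4 on the VDR+VitD arrays and below 10.9 on the others, while the VDR and VDR+VitD values of each of the 6 genes overlap.

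The 6 genes whose proteins GGCX modifies, F2, F7, F9, F10, PROC and PROS1, were not called in any comparison. F2, prothrombin, was at 13.08, 13.17 and 12.74 in VDR and 12.98, 13.01 and 13.14 in VDR+VitD cells, and PROC, protein C, at 14.57, 14.31 and 14.32 and at 14.25, 14.24 and 14.46. Both pairs of groups overlapped. The log2 differences with VitD were 0.05 for F2, 0.07 for F7, 0.09 for F9, 0.12 for F10, -0.08 for PROC and 0.12 for PROS1, and every interval lay between -0.37 and 0.46, within a 1.5-fold change. F10 was the mean of 3 transcript clusters, whose differences were 0.10, 0.12 and 0.15. F9 lay below the reference level for dim probes. PROZ and GAS6, vitamin K-dependent genes of a separate list, were not called in any comparison either. With VitD they had 0.09 (interval -0.21 to 0.39) and -0.21 (interval -0.63 to 0.20). Against CONT, VDR+VitD cells had 0.48 for PROZ without overlap (limma adjusted p = 0.0610) and -0.50 for GAS6 (limma adjusted p = 0.185). F5 and F12 had -0.20 and -0.17, and among the anticoagulant and fibrinolytic genes PLG, plasminogen, had the largest difference, 0.18 (interval -0.31 to 0.67), with values of 8.33, 8.95 and 8.80 in VDR and 8.29, 9.02 and 9.31 in VDR+VitD cells, lowest in experiment 1 in both groups. In a list of 23 further genes of coagulation and fibrinolysis, SERPINA5 was the only gene called with VitD, and SERPINE2, protease nexin-1, the only one with Ad-VDR. SERPINE2 was at 12.25, 12.67 and 12.23 in CONT, 11.21, 11.60 and 11.07 in VDR and 10.85, 11.09 and 10.77 in VDR+VitD cells. All CONT arrays were above the rest, and the log2 difference of VDR against CONT was -1.09 (standard error 0.17, adjusted p = 0.0089).

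In VDR+VitD against CONT cells, which holds both steps, 7 of the 50 genes were called, all higher, namely MASP1, MBL2, MASP2, ITIH1, ITIH3, SERPINC1 and KNG1. This is 14.0%, against 4.81% of all genes in either direction, 2.69% called higher and 2.12% called lower. The same 7 were called without the fold threshold, against 5.81% of all genes, and 12 had an unadjusted p under 0.05, against 16.6%. The groups did not overlap for 18 of the 50 (36.0%), against 21.7% of all genes in either direction. Without overlap and higher in VDR+VitD cells were 16 of the 50, against 1788 of all 17687 genes. The median log2 difference was 0.12, against -0.01 over all genes. By role, 3 of 12 complement genes, 2 of 5 inter-alpha inhibitor genes, 1 of 7 protease inhibitors and 1 of 11 clotting genes were higher, and none of the carrier, acute-phase or anticoagulant and fibrinolytic genes was called. In the same comparison 1 of 5 cholangiocyte markers was called lower (log2 difference -1.0) and 1 of 8 hepatocyte markers higher (0.60), and the part of either in these results was not tested. This comparison shares its arrays with the other 2 and is no independent support for them. Under treat, MASP1 alone was called. Further genes of the separate lists that were called here included SERPINA6, the cortisol carrier, with 0.63, CD46, with 0.60, and SERPINA10, which inhibits factor Xa, with -0.59.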

How the data were processed

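RNA of 9 HepG2 cultures was hybridised to Clariom S arrays. The authors' deposited log2 values came from RMA, which corrects background, equalises the distribution of every array and summarises probes by transcript cluster. The submitters' processing notes name Transcriptome Analysis Console 4.0.2. The genome build was not given in the sources used here. This normalization hides a shift shared by most genes. Of 21448 clusters 17709 had 1 symbol in the platform annotation, none had several and 3739 were unnamed, and all 17709 matched a RefSeq gene by Entrez identifier. Clusters of the same symbol were averaged (20 genes, F10 among those described), which left 17687 genes. GC was not analysed here.

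Groups were compared with limma 3.58.1 in R 4.3.3 (lmFit, contrasts.fit, eBayes), fitted to all 9 arrays with a mean per group and no other term, as the study's methods name no block. The Benjamini-Hochberg adjustment ran over all genes, and intervals are 95% intervals of that fit. Microarrays give no count of molecules, and 3 arrays per group limit the precision. When counts of calls were tested on simulated data (17687 genes, VDR+VitD against VDR), 40.4% of genes changed 1.5-fold and 98.6% of those changed 2-fold were called. A call required a fold-change over 1.5, so that genes changed 1.5-fold lay at the cutoff itself. Their 40.4% is therefore no measure of the precision. The members and lists were chosen with earlier results of these data known. Named are all genes called in any comparison, the gene with the largest VitD difference in each role, and up to 6 called genes per further list, and other genes are named for context after their values were seen. Promoters came from the RefSeq table (GRCh38.p14). Of 40 promoters read for the described genes, 39 began at the listed gene start and were searched.

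The experiment number pairs the samples, since each of the 3 independent experiments gave 1 array per group. Deviations from group means correlated with r of 0.042 to 0.145 across all genes in pairs from the same experiment and -0.0959 to 0.0102 in other pairs. Across the plasma protein genes alone, r was -0.0424 to 0.506 (median 0.324) in the former and -0.432 to 0.246 (median -0.14) in the latter. Alternatives were the experiment as a block, the 6 arrays compared, an intensity trend, filters on dim or less variable genes, limma's treat, no fold threshold, centring on the median or on GAPDH, separate clusters and leaving out each array.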

Additional observations from a re-analysis of the deposited data

How the results depend on the processing

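The 3 genes called with VitD stayed 3 with the experiment as a replicate block and became 5 with arrays centred on GAPDH, where F11 and C8A were called lower as well. Leaving out 1 array gave 3 to 5. Centring on GAPDH, chosen after seeing the data in place of a planned centring on several reference genes that was not run, moved every log2 difference with VitD by the same amount, and the median of the 50 genes from -0.005 to -0.13. The single gene called with Ad-VDR became 2 with the experiment as a replicate block, 3 with an intensity trend in the variance prior, 3 with dim genes left out, 3 with the 8000 most variable genes and 3 with arrays centred on GAPDH (F11 with MASP2, and in the latter 4 settings CFB too). It became 0 with only the 6 arrays compared and 0 with treat, and 0 to 1 when 1 array was left out, MASP2 instead of F11 without VDR replicate 2. The 7 genes called against CONT stayed 7 with the block, became 1 with treat, and were 5 to 7 when 1 array was left out, PLG among them without VDR+VitD replicate 1. Over the 22 genes that pass the filter on variation, which favours genes that differ, the medians were 0.0583 with VitD, 0.29 with Ad-VDR and 0.35 against CONT, and with arrays centred on GAPDH the median for Ad-VDR was 0.17. The other medians moved by less than their spread between experiments. No called difference changed direction, and the cause of the lost or gained calls was not tested. Of the 174 alternative values for the called differences of single genes, 155 kept their call and 19 lost it, 8 of them with treat. The block changed no other call. Signal limits what can be said of C9, CRP, F9 and ITIH1, and of COLEC10, COLEC11, FCN3 and KLKB1, which lie near the background. SAA1, F12, FCN1 and FCN2 have means just above the reference level for dim probes. AHSG lies near the top of the range, where a change can be understated, and this may hold for TF, SERPINA1, C3 and ALB too.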
